A study of Mus musculus with 2 samples.

Results

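The genes described here are 7 receptors of the TNF receptor superfamily that T cells carry and 3 of the TRAF adaptors that bind their tails. They were taken by symbol from the gene list of the deposited matrices, 10 of 31253 genes, and all 10 were present. They are Tnfrsf1a (TNFR1), Tnfrsf1b (TNFR2), Tnfrsf25 (DR3), Tnfrsf4 (OX40), Tnfrsf9 (4-1BB), Tnfrsf18 (GITR), Cd27, Traf1, Traf2 and Traf3. Their expression was read from single-cell RNA sequencing of mouse spleen cells sorted as CD4+Foxp3+ regulatory T (Treg) cells, the T cells that restrain immune responses. One library came from Foxp3YFP-Cre Kmt2d fl/fl mice (here fl/fl) and one from Foxp3YFP-Cre Kmt2d+/+ mice (here +/+), with 3 mice pooled in each. Both genotypes carry Cre recombinase and yellow fluorescent protein under the Foxp3 promoter, so recombination of floxed Kmt2d, a histone H3 lysine 4 methyltransferase gene, is directed to Treg cells. The ages of the mice and the floxed exons are not given in the sources used here. With 1 library per genotype no test across replicates could be made, and a difference between genotypes cannot be told apart from a difference between libraries.

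Receptors of this family mostly act as trimers and are bound by mostly trimeric ligands of the TNF superfamily. They have no enzyme activity, and most recruit TRAF proteins, which feed into the canonical and non-canonical NF-kB pathways. TNFR1 and DR3 also carry a death domain. On Treg cells TNFR2, OX40, 4-1BB and GITR are known as activation-associated, costimulatory receptors, and TNFR2 and DR3 agonists are known to expand Treg cells in mice.

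Promoter sequences are shown for 3 costimulatory receptors on GRCm38 chromosome 4, Tnfrsf9, Tnfrsf4 and Tnfrsf18, because these genes were all lower in the fl/fl library. Tnfrsf1b and Tnfrsf25 are also on this chromosome and were also lower, but their promoters are not shown. Tnfrsf4 (156013843 to 156016612, plus strand) and Tnfrsf18 (156026164 to 156028895, plus strand) were 9551 bases apart in the GENCODE annotation with 0 protein-coding genes between them. Tnfrsf9 lies apart from them at 150914562 to 150946102, plus strand, and its nearest gene of the 10 is Tnfrsf25, 1169831 bases away with 12 protein-coding genes between them. The sequences are from RefSeq (GRCm38), run from 250 bases before to 50 bases after a start site, and carry any match to the NF-kB consensus in capitals.

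Tnfrsf9, chr4:150927749-150928048, plus strand: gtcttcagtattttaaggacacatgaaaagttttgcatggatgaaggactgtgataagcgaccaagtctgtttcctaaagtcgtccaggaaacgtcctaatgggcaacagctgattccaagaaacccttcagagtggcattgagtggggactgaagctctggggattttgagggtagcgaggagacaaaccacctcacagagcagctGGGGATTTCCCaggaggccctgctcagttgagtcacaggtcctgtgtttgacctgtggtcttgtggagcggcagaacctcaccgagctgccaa
Tnfrsf4, chr4:156013445-156013744, plus strand: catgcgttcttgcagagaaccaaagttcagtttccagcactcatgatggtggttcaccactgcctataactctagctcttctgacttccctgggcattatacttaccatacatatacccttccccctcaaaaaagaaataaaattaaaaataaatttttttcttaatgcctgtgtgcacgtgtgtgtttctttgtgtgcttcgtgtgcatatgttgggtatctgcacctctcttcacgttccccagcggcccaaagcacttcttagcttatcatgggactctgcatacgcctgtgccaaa
Tnfrsf18, chr4:156026072-156026371, plus strand: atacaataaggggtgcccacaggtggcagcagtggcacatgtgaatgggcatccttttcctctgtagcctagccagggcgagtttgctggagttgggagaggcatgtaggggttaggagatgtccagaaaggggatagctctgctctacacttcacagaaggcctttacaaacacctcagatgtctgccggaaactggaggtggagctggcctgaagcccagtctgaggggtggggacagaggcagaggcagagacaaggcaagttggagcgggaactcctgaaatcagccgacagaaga

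The NF-kB consensus was searched on both strands, and overlapping matches were counted. It was present in 2 of the 12 RefSeq start-site windows of the 10 genes (16.7%), against 1480 of 32851 windows genome-wide (4.51%). The Tnfrsf9 window shown held overlapping matches between -43 and -33 from its start site, and the window of a second Tnfrsf9 start site held 0. The other was in Traf3, between -10 and -1. No match in a window says only that these letters are not in it.

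The fl/fl file held 8784 barcodes and 63989234 unique molecular identifiers (UMIs), and the +/+ file 7947 barcodes and 53680614 UMIs, and 15 barcode sequences occurred in both. After filters, 8450 fl/fl and 7677 +/+ single cells remained. Cells were assigned to types by gates on marker genes that exclude the 10 genes. The Treg gate (T cell markers with Foxp3 or Ikzf2, not cycling) held 3600 fl/fl and 3935 +/+ cells, with a median of 6664.5 and 5489 UMIs per cell. A Foxp3 UMI was present in 17.1% of the fl/fl and 20.4% of the +/+ cells of this gate, so it rests mainly on Ikzf2. Levels are given as CPM, the summed UMI counts of a gene after every sum of cells was scaled to the same total. Foxp3 was at 28.0 CPM in fl/fl and 40.6 CPM in +/+ Treg-gated cells. B cells, NK cells, CD8 T cells and myeloid cells were also present despite the sort, among them 1219 fl/fl and 479 +/+ B-gated cells. Kmt2d, the targeted gene, was at 71.1 CPM in fl/fl and 73.3 CPM in +/+ Treg-gated cells, a log2 ratio of -0.04 (95% interval -0.14 to 0.05). A count of UMIs at the 3' end checks nothing about deletion of exons elsewhere in the gene. All intervals cover counting error only.

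In Treg-gated cells 5 of the 7 receptors and 1 of the 3 TRAFs were lower in the fl/fl library. A gene was counted as measured at 10 CPM or more in either library, and as lower or higher when its CPM ratio was at least 1.5 with an interval that excludes 1. This is a rule of size, not a test. Of the 9 measured genes, 6 were lower and 0 higher, against 10.2% lower and 2.23% higher among the 7976 measured genes. The median log2 ratio was -0.99 over the 9 measured genes and -0.15 over all measured genes. Scaling the libraries by the median gene ratio in place of total UMIs shifted every ratio by 0.13. It gave 571 lower and 286 higher genes, against 810 and 178, and left the same number of the 9 genes lower, 6.

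Among the receptors for TNF and related ligands, Tnfrsf1b stood lowest. This gene for TNFR2, the receptor that binds membrane-bound TNF and recruits TRAF2, was at 48.9 CPM in fl/fl and 122.9 CPM in +/+ Treg-gated cells. Its log2 ratio was -1.33 (-1.43 to -1.23), and 2.07% of measured genes had a lower one. Tnfrsf25, the gene for the death-domain receptor of TL1A, was at 15.9 CPM in fl/fl and 31.6 CPM in +/+ cells, a log2 ratio of -0.99 (-1.17 to -0.81). Tnfrsf1a, the gene for the death-domain receptor TNFR1, was low in both libraries. It stood at 7.31 CPM in fl/fl and 9.98 CPM in +/+ cells, under the 10 CPM limit.

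The costimulatory receptors fell into a group of 3 and a single exception. Tnfrsf4, the gene for OX40, was at 118.0 CPM in fl/fl and 281.8 CPM in +/+ Treg-gated cells, a log2 ratio of -1.26 (-1.32 to -1.19). Tnfrsf9, the gene for 4-1BB, was at 151.6 CPM in fl/fl and 330.2 CPM in +/+ cells, a log2 ratio of -1.12 (-1.18 to -1.07). Tnfrsf18, the gene for GITR, was at 116.8 CPM in fl/fl and 221.6 CPM in +/+ cells, a log2 ratio of -0.92 (-0.99 to -0.86). These 3 are receptors whose ligands are induced on antigen-presenting cells. Cd27, the receptor for CD70 that resting T cells already carry, was at 193.6 CPM in fl/fl and 219.3 CPM in +/+ cells. Its log2 ratio was -0.18 (-0.24 to -0.12), close to the median of all genes.

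The adaptors also differed among themselves. Traf2, a RING-domain adaptor that links TNFR2 and other receptors to canonical NF-kB, was at 10.2 CPM in fl/fl and 21.7 CPM in +/+ Treg-gated cells. Its log2 ratio was -1.09 (-1.31 to -0.87), from 263 and 516 UMIs. Traf1, which lacks the RING domain and pairs with TRAF2, was at 150.2 CPM in fl/fl and 180.7 CPM in +/+ cells, a log2 ratio of -0.27 (-0.33 to -0.20). Traf3, which restrains the non-canonical pathway, was at 137.6 CPM in fl/fl and 179.9 CPM in +/+ cells, a log2 ratio of -0.39 (-0.45 to -0.32). Neither Traf1 nor Traf3 reached the 1.5-fold limit.

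The differences were also visible per cell. After each cell was thinned to 2500 UMIs, a Tnfrsf4 UMI was found in 18.9% of fl/fl and 41.0% of +/+ Treg-gated cells, against 0.259% and 0.636% of B-gated cells, which should lack the gene. Without thinning the Treg-gated shares were 36.4% and 60.6%. Thinned shares for Tnfrsf9 were 22.2% in fl/fl and 39.9% in +/+ Treg-gated cells, and for Tnfrsf18 23.4% and 40.3%. Every one of these shares lay above that of B-gated cells, which reached 3.60% for Tnfrsf18. Median depths of B-gated cells were 4298 UMIs in fl/fl and 4774 UMIs in +/+. Tnfrsf18 was at 10.9 CPM in fl/fl and 14.7 CPM in +/+ B-gated cells, and whether B cells express it was not tested. For Tnfrsf1b the shares were 9.92% in fl/fl and 24.2% in +/+ Treg-gated cells, and for Cd27 37.8% and 41.0%.

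The Treg gate was split by the difference between central markers (among them Ccr7, Lef1 and Tcf7) and effector markers (Icos, Itgae, Klrg1, Maf, Prdm1, Tigit). The effector part held 551 fl/fl and 935 +/+ cells, the intermediate part 298 and 784, and the central part 2751 and 2216. The split used raw UMIs, and median depth of the Treg gate was 6664.5 UMIs in fl/fl and 5489 in +/+. Within 1 UMI of the split lay 19.7% of fl/fl and 33.9% of +/+ Treg-gated cells. The part of depth in these sizes was not tested. Several of the receptors were higher in effector cells, so the mix of parts bears on the whole-gate values above. In fl/fl cells 5 of the 9 measured genes were higher in the effector than in the central part and 0 lower, against 17.9% higher and 4.55% lower of 8039 measured genes. In +/+ cells 4 of 9 were higher and 0 lower, against 14.7% higher and 4.09% lower of 8280.

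Tnfrsf1b had the steepest difference between effector and central cells. It was at 143.6 CPM in effector and 30.4 CPM in central cells of the fl/fl library, and at 227.6 CPM in effector and 78.2 CPM in central cells of the +/+ library. These give log2 ratios of 2.24 (2.07 to 2.41) in fl/fl and 1.54 (1.42 to 1.66) in +/+. The corresponding log2 ratios were 1.57 and 1.13 for Tnfrsf4, 1.11 and 1.38 for Tnfrsf9, and 1.39 and 0.78 for Tnfrsf18, in fl/fl and +/+ cells. All 4 of these receptors were higher in effector cells of both libraries. Traf3 was higher in fl/fl effector cells by 0.61 and by 0.27 in +/+, under the limit. Cd27, Traf1, Traf2 and Tnfrsf25 did not reach it in either library, and Tnfrsf1a was not measured.

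**Figure D1:**
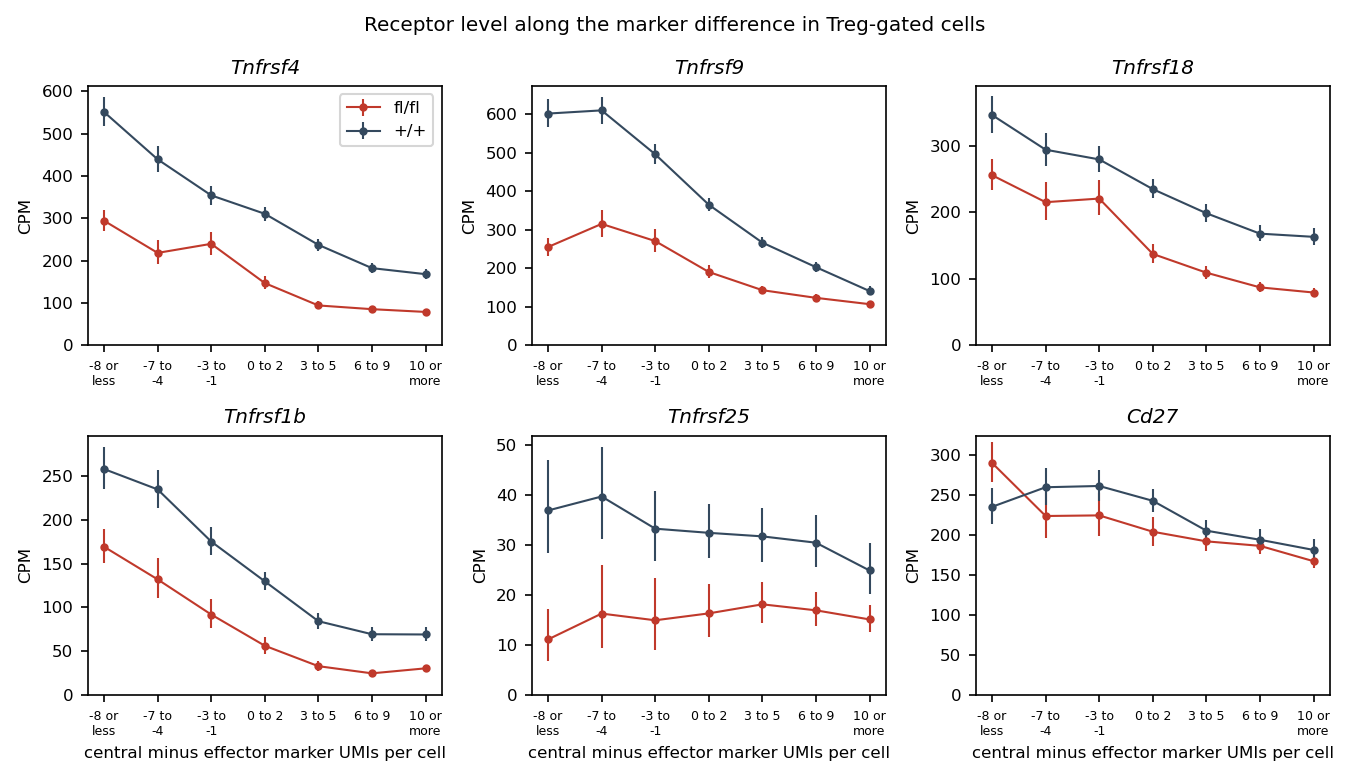
Level of 6 receptors (CPM of summed counts, 95% Poisson intervals) in Treg-gated cells in 7 bins of the difference between central and effector marker UMIs, from effector on the left to central on the right, for fl/fl (red) and +/+ (dark). Tnfrsf4, Tnfrsf9, Tnfrsf18, Tnfrsf1b and Tnfrsf25 lie lower in fl/fl in every bin, whereas the lines of Cd27 cross.

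Each part of the Treg gate held genes that were lower in fl/fl. In central cells 6 of 9 measured genes were lower and 0 higher, against 9.05% lower and 2.29% higher of 7812 genes. In intermediate cells 5 of 10 were lower and 0 higher, against 11.5% lower and 3.67% higher of 8165 genes. In effector cells 5 of 9 were lower and 0 higher, against 10.5% lower and 3.92% higher of 8341 genes, and with cells thinned to 2500 UMIs and gated on those counts 3 were lower, Tnfrsf25, Tnfrsf4 and Tnfrsf9. The medians of the measured genes were -0.84 in central, -0.82 in intermediate and -0.66 in effector cells, beside -0.12, -0.12 and -0.08 over all genes. Traf2, Tnfrsf25, Tnfrsf1b, Tnfrsf9 and Tnfrsf4 were the 5 lower genes in intermediate cells. The gene lower in central but not called in effector or intermediate cells was Tnfrsf18, in effector cells at 238.6 CPM in fl/fl and 311.9 CPM in +/+ cells, a log2 ratio of -0.39 (-0.51 to -0.27). In central cells it was at 91.0 CPM in fl/fl and 181.8 CPM in +/+, a log2 ratio of -0.998 (-1.08 to -0.91).

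Tnfrsf1b followed Tnfrsf18 in being less different in effector cells, with log2 ratios of -0.66 (-0.82 to -0.51) in effector and -1.36 (-1.51 to -1.22) in central cells. Tnfrsf4 was at 260.6 CPM in fl/fl and 455.2 CPM in +/+ effector cells (-0.80, -0.91 to -0.69), and at 87.6 CPM in fl/fl and 207.5 CPM in +/+ central cells (-1.24, -1.33 to -1.16). Tnfrsf9 went the other way, with 268.4 CPM in fl/fl and 567.2 CPM in +/+ effector cells (-1.08, -1.18 to -0.97) and 124.1 CPM in fl/fl and 217.6 CPM in +/+ central cells (-0.81, -0.89 to -0.73). The differences between these ratios were not tested. When the 3 parts were given the same weight in both libraries, the whole-gate ratios were -0.90 for Tnfrsf1b, -0.90 for Tnfrsf4, -0.96 for Tnfrsf9 and -0.58 for Tnfrsf18, the last just short of 1.5-fold.

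Along the marker difference in finer steps the receptor genes Tnfrsf4, Tnfrsf9, Tnfrsf18, Tnfrsf1b and Cd27 were lower at the central than at the effector end in both libraries. Tnfrsf4 was at 294.2 CPM in fl/fl and 551.2 CPM in +/+ cells of the most effector-marked bin, and at 78.5 CPM in fl/fl and 167.9 CPM in +/+ cells of the most central bin. The fl/fl level lay below the +/+ level in all 7 bins for Tnfrsf4, Tnfrsf9, Tnfrsf18, Tnfrsf1b and Tnfrsf25. Tnfrsf9 came closest at the central end, with 106.4 CPM in fl/fl and 140.5 CPM in +/+ cells. Cd27 was at 290.3 CPM in fl/fl and 235.4 CPM in +/+ cells at the effector end, and fl/fl was below +/+ in the other 6 bins.

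**Figure D2:**
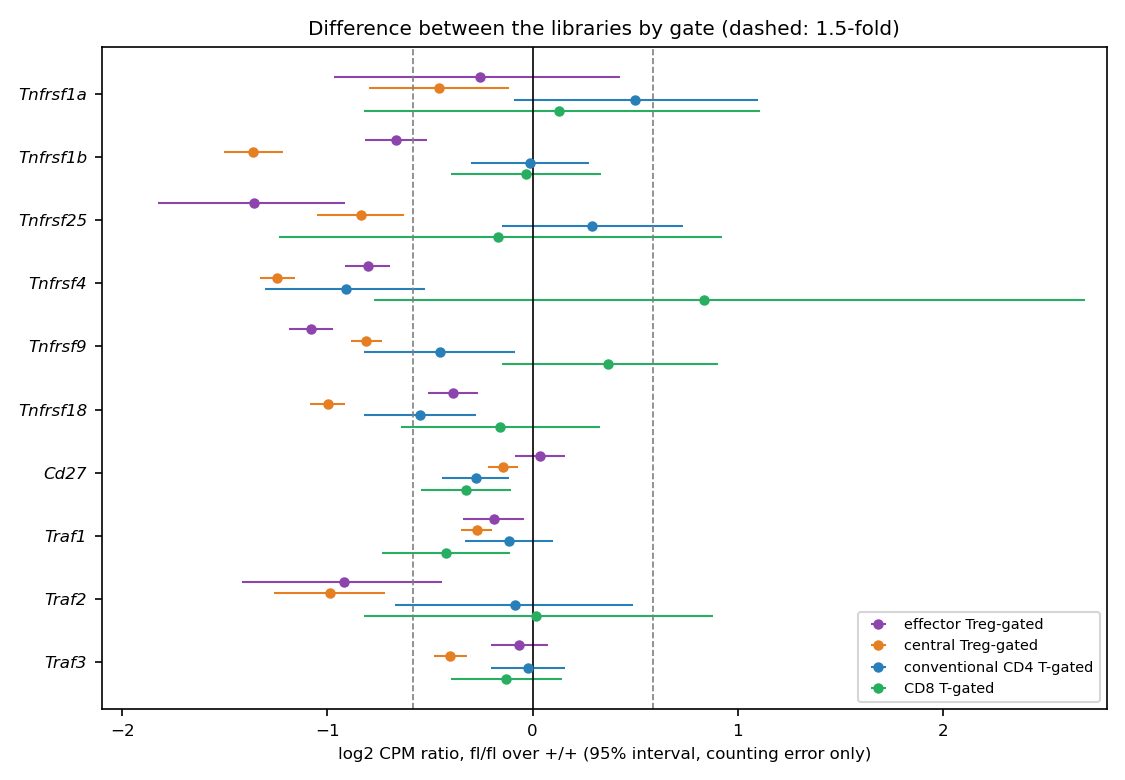
Log2 CPM ratio of fl/fl over +/+ for the 10 genes in effector Treg-, central Treg-, conventional CD4 T- and CD8 T-gated cells, with 95% intervals for counting error and dashed lines at 1.5-fold. Tnfrsf1b, Tnfrsf25 and Traf2 lie below the line in both Treg parts and have intervals that include 0 in conventional CD4 T cells, while Tnfrsf4 is lower there as well.

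In thinned Treg-gated cells of the fl/fl library fewer of the 7 receptors were detected per cell. A cell with 0 UMIs is not shown to lack the transcript, and the counts are drawn from those behind the CPM ratios. In thinned effector cells a mean of 1.81 of the 7 receptors had a UMI in fl/fl and 2.58 in +/+. In thinned central cells the means were 1.03 in fl/fl and 1.65 in +/+, and in B-gated cells 0.0802 and 0.0953. Cells with 4 or more made up 11.8% of fl/fl and 27.1% of +/+ effector cells. Cells with 0 made up 16.9% of fl/fl and 6.07% of +/+ effector cells, and 25.8% of fl/fl and 11.2% of +/+ intermediate cells.

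**Figure D3:**
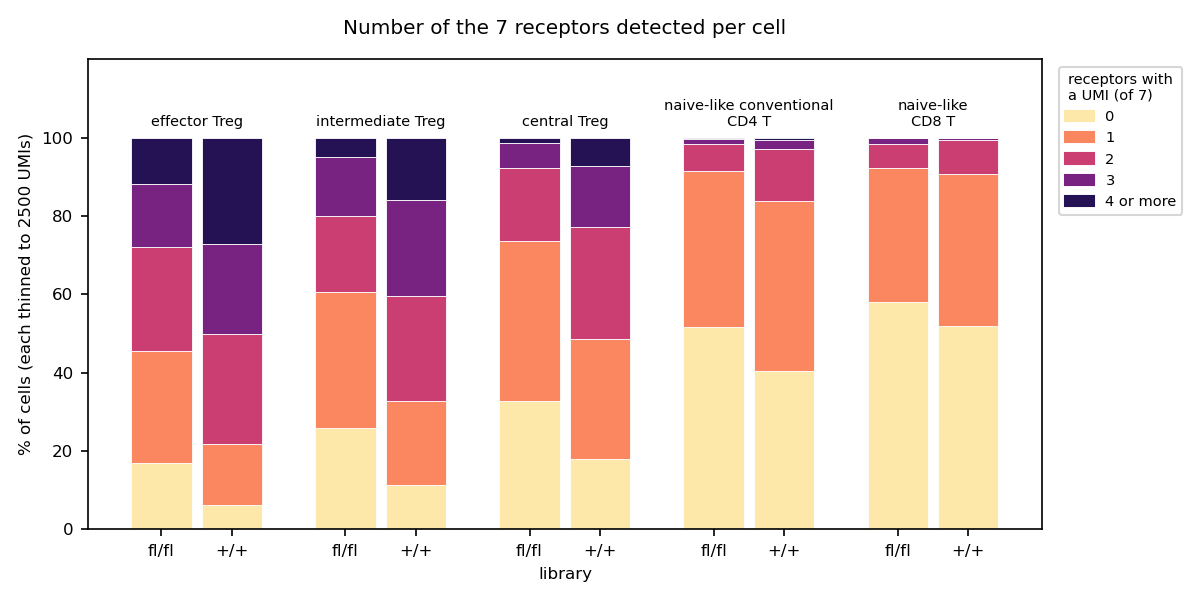
Share of cells (%, each thinned to 2500 UMIs) with a UMI of 0, 1, 2, 3 or 4 and more of the 7 receptors, by gate, with fl/fl left of +/+ in each pair. Effector Treg-gated cells with 4 or more make up 11.8% in fl/fl and 27.1% in +/+.

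Some pairs of receptor transcripts occurred together more often than others. The 21 pairs of receptors were compared by the share of cells with a receptor among those with and without its partner. This share was larger with the partner for 16 pairs in fl/fl and 13 in +/+ effector cells. The other 5 pairs in fl/fl and 8 in +/+ went the other way, and all held Tnfrsf1a or Tnfrsf25. Few thinned effector cells had a UMI of these genes, 11 in fl/fl and 19 in +/+ for Tnfrsf1a, 17 and 78 for Tnfrsf25. In central cells of both libraries the split was 15 and 6. Among thinned effector cells of the fl/fl library, a Tnfrsf4 UMI was present in 49.2% of those with a Tnfrsf9 UMI and 24.1% of those without. In the +/+ library the shares were 63.5% and 42.4%. The pair Tnfrsf4 and Cd27 showed less of this, with 35.4% and 29.9% in fl/fl and 56.2% and 53.3% in +/+ for cells with and without a Cd27 UMI. In central cells this pair went the other way, with 14.3% and 15.9% in fl/fl and 32.8% and 34.2% in +/+. These shares are descriptions, since cells of 1 library are not replicates.

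Conventional CD4 T cells (a Cd4 UMI, no Foxp3 and no Ikzf2) numbered 692 in fl/fl and 740 in +/+. Of the 10 genes measured there, 1 was lower and 0 higher, against 2.93% lower and 2.51% higher of 7778 genes. With cells thinned to 2500 UMIs and gated on those counts 3 were lower, Tnfrsf4 (-1.37), Tnfrsf9 (-0.96) and Tnfrsf18 (-0.90). At full depth the lower gene was Tnfrsf4, at 22.0 CPM in fl/fl and 41.3 CPM in +/+ cells, a log2 ratio of -0.91 (-1.30 to -0.52). Tnfrsf18 was at 48.6 CPM in fl/fl and 71.0 CPM in +/+ cells, a log2 ratio of -0.55 (-0.82 to -0.28). Tnfrsf1b, by contrast with the Treg gate, was at 50.7 CPM in fl/fl and 51.1 CPM in +/+ cells (-0.01, -0.30 to 0.28), and Traf2 at 12.7 CPM in fl/fl and 13.5 CPM in +/+ cells (-0.09, -0.67 to 0.49). The mix of these cells differed, with 216 fl/fl and 128 +/+ cells in the activated part and 445 and 554 in the naive-like part. In the naive-like part alone Tnfrsf4 was at 14.5 CPM in fl/fl and 37.8 CPM in +/+ cells (-1.38, -1.97 to -0.83). In the activated part it was at 36.3 CPM in fl/fl and 52.9 CPM in +/+ cells (-0.54, -1.20 to 0.12), and Tnfrsf9 was lower, at 42.2 CPM in fl/fl and 67.8 CPM in +/+ cells (-0.68, -1.28 to -0.09). The log2 ratio of Tnfrsf1b was -0.22 (-0.66 to 0.20) in the naive-like and -0.35 (-0.79 to 0.09) in the activated part. Treg cells in which neither Foxp3 nor Ikzf2 was captured would pass this gate if they had a Cd4 UMI, and their part in the values was not tested.

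In CD8 T cells, 351 in fl/fl and 255 in +/+, 0 of the 7 measured genes were lower and 0 higher by the rule of size, against 3.43% lower and 1.72% higher of 7852 genes. Tnfrsf9 was at 34.5 CPM in fl/fl and 26.7 CPM in +/+ CD8 cells (0.37, -0.15 to 0.90), and Tnfrsf1b at 57.9 CPM in fl/fl and 59.2 CPM in +/+ CD8 cells (-0.03, -0.40 to 0.34). Cycling T cells with Treg markers numbered 200 in fl/fl and 104 in +/+. Of the 10 genes measured in them 3 were lower and 0 higher, against 7% lower and 4.26% higher of 8176 genes. The 3 were Traf2 (-0.91, -1.52 to -0.31), Tnfrsf25 (-0.83, -1.57 to -0.08) and Tnfrsf4. In them Tnfrsf4 was at 146.7 CPM in fl/fl and 234.3 CPM in +/+ cells (-0.68, -0.86 to -0.49), Tnfrsf9 at 167.4 CPM in fl/fl and 242.4 CPM in +/+ cells (-0.53, -0.72 to -0.35), and Tnfrsf1b at 54.3 CPM in fl/fl and 61.8 CPM in +/+ cells (-0.19, -0.53 to 0.16). In the innate-like T gate, 110 cells in fl/fl and 59 in +/+, 2 of 10 measured genes were lower and 0 higher, against 4.9% lower and 2.17% higher of 8649 genes. Tnfrsf4 was at 23.1 CPM in fl/fl and 80.7 CPM in +/+, from 14 and 32 UMIs, and Tnfrsf18 at 56.1 CPM in fl/fl and 108.5 CPM in +/+ (-0.95, -1.64 to -0.27). The summed Treg markers of this gate were at 673.1 CPM in fl/fl and 1077 CPM in +/+, and their part in these values was not tested. In B-gated cells Traf3, a brake on B cell survival signals, was at 162.5 CPM in fl/fl and 216.6 CPM in +/+ (-0.41, -0.55 to -0.27), under the limit.

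The cell types ordered the 10 genes differently. Within the fl/fl library Treg-gated cells exceeded conventional CD4 T-gated cells by a log2 ratio of 2.42 for Tnfrsf4, 2.46 for Tnfrsf9, 1.27 for Tnfrsf18 and 0.76 for Traf1. Within the +/+ library these ratios were 2.77, 3.13, 1.64 and 0.92. Tnfrsf1b was 1.27 (1.07 to 1.47) higher in Treg- than conventional CD4-gated cells of the +/+ library, and -0.05 (-0.27 to 0.17) apart in the fl/fl library. Tnfrsf25 was 0.65 (0.32 to 0.99) higher in Treg-gated cells of the +/+ library, and -0.63 (-0.96 to -0.29) in the fl/fl library. The mix of parts in both gates differed between the libraries. For effector Treg over activated conventional CD4 T cells Tnfrsf1b gave 0.75 (0.44 to 1.07) in fl/fl and 1.07 (0.74 to 1.41) in +/+. For central Treg over naive-like conventional cells it gave -0.06 (-0.41 to 0.30) and 1.07 (0.80 to 1.36). In the same order Tnfrsf25 gave -1.62 (-2.20 to -1.05) and 0.35 (-0.29 to 1.05), then 0.13 (-0.37 to 0.67) and 0.72 (0.31 to 1.15). The differences between the libraries in these contrasts were not tested.

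Effector Treg cells held the top levels of Tnfrsf4, Tnfrsf9, Tnfrsf18 and Cd27 among the 15 gates. Cd27 averaged 255.0 CPM over both libraries there. Its lower library (251.9 CPM) lay just above the higher library of intermediate Treg cells (248.9 CPM). For Tnfrsf4, Tnfrsf9 and Tnfrsf18 the spread over libraries overlapped that of intermediate Treg cells. NK cells, with 190.3 CPM in fl/fl and 165.6 CPM in +/+, were the highest in Tnfrsf9 outside the T cells. Tnfrsf1a was highest in neutrophils (98.8 CPM in fl/fl and 107.9 CPM in +/+) and next in monocytes or macrophages (91.6 and 77.7 CPM), the cells in which TNFR1 is well known. Those monocytes or macrophages held the highest mean Tnfrsf1b (270.6 CPM in fl/fl and 136.2 CPM in +/+), overlapping effector Treg cells. Dendritic cells were highest in Traf1, at 286.0 CPM in fl/fl and 243.4 CPM in +/+. Tnfrsf25 had its highest mean over both libraries in activated conventional CD4 T cells, at 45.6 CPM in fl/fl and 29.9 CPM in +/+, although in the +/+ library effector (38.0 CPM) and intermediate (32.8 CPM) Treg cells lay above them. It had 0 UMIs in neutrophils, dendritic cells and plasma cells of both libraries. Traf2 and Traf3 were spread over all gates with few separations.

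**Figure D4:**
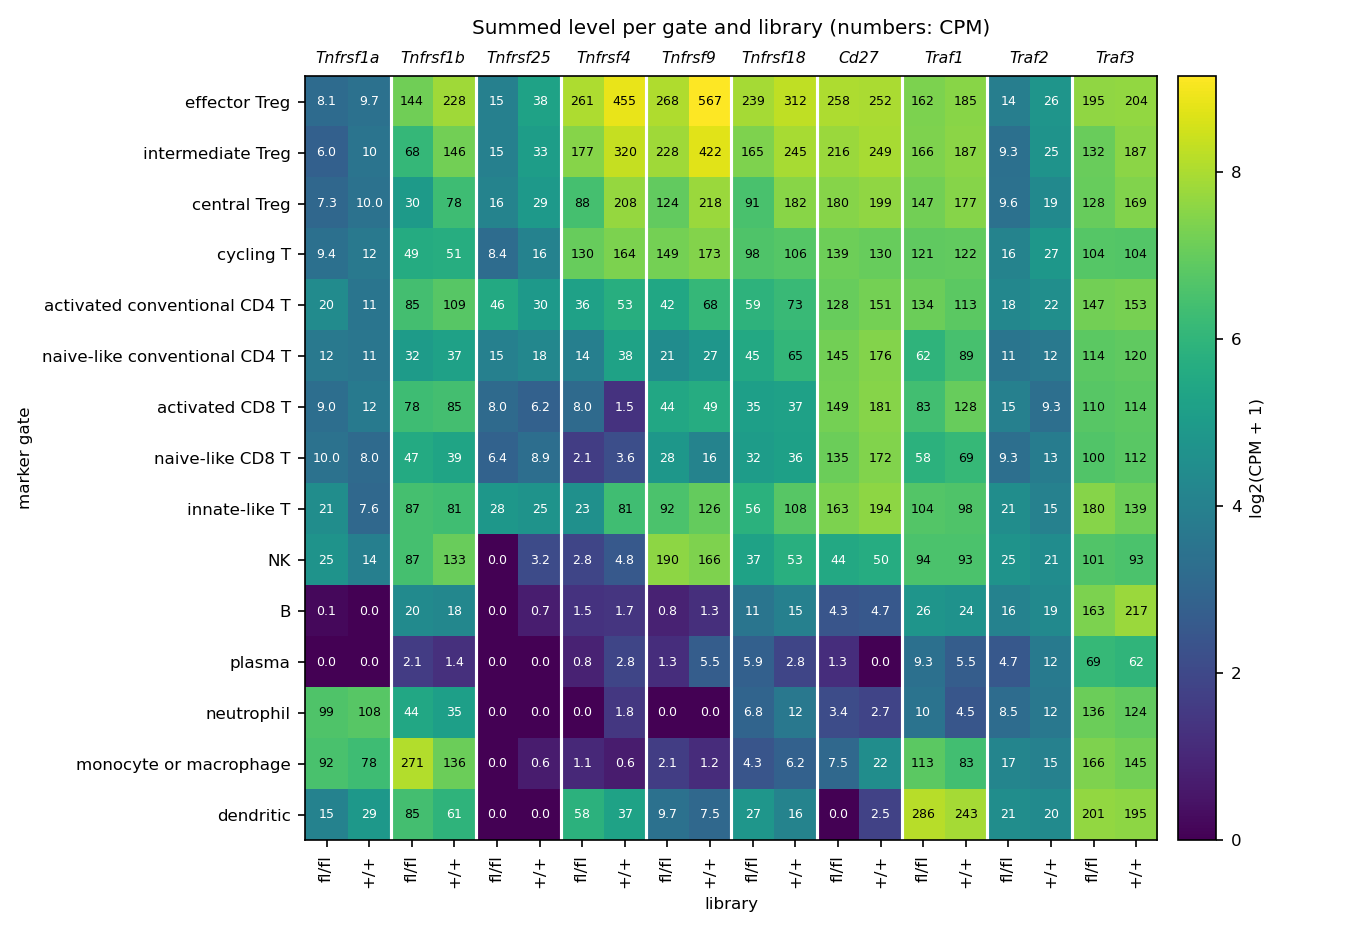
Level of the 10 genes in 15 marker gates (rows) and in fl/fl and +/+ (left and right column of each pair), with colour for log2(CPM + 1) and numbers for CPM. Tnfrsf4, Tnfrsf9 and Tnfrsf18 are highest in effector Treg cells, Tnfrsf1a in neutrophils and Traf1 in dendritic cells.

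Across the 29 sums of a gate and library with at least 50 cells, the genes whose levels were most like those of each of the 10 genes were looked up. By Pearson's r of log2(CPM + 1) over 8372 candidate genes, Tnfrsf4 was most like Il2ra, the high-affinity IL-2 receptor chain (0.89), Tnfrsf18 (0.89) and Itgb8 (0.86). Tnfrsf9 and Tnfrsf18 were each the other's closest gene (0.93). Cd27 was close to Zap70 and Camk4 (0.96 each), and Tnfrsf25 like Pde11a (0.95), Trat1 and Bcl11b (0.94 each). Traf3 was most like Nfkb2 (0.80), Rest (0.80) and Irf2bp2 (0.79). Tnfrsf1a was most like Gsr, Hpcal1 and Svil, Tnfrsf1b like Ppp1r9b, Ubash3b and Bloc1s1, and Traf1 like Commd7, Ifnar1 and Lysmd2, with r between 0.86 and 0.91. Traf2 was most like Extl3, Cbfb and Trpv2 (0.80 each). The sums of one library share its depth and preparation, so these are descriptions.

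The rest of the pathway was read list by list in Treg-gated cells, where 10.2% of all measured genes were lower and 2.23% higher. Of 8 measured TNF superfamily ligands 6 were lower and 0 higher in fl/fl, with a median log2 ratio of -0.67. They were Tnfsf11, the gene for RANKL, at 21.1 CPM in fl/fl and 50.1 CPM in +/+ (-1.25), Cd40lg (-0.95), Fasl (-0.74) and Tnf (-0.69), together with Tnfsf8 (-0.66) and Ltb (-0.59). Within the parts fewer ligands were lower, 3 of 7 in central, 1 of 8 in intermediate and 4 of 8 in effector cells. Of all measured genes 9.05%, 11.5% and 10.5% were lower there. The ligand medians were -0.57 in central, -0.38 in intermediate and -0.56 in effector cells. In effector cells 1 ligand was higher, where 3.92% of all genes were higher. In the whole gate 0 of 15 measured receptor-proximal adaptors were lower and 0 higher, with a median of -0.10. Among them Birc2 and Birc3, ubiquitin ligases that bind TRAF2, had log2 ratios of 0.22 and -0.14. Of 6 measured other receptors 2 were lower. Tnfrsf8, the gene for CD30, was at 3.11 CPM in fl/fl and 18.4 CPM in +/+ cells (-2.57, -2.93 to -2.22), and Tnfrsf10b, the gene for the mouse TRAIL receptor, had a log2 ratio of -1.37. Within the parts 0 of 4 measured other receptors were lower in central, 2 of 5 in intermediate and 2 of 5 in effector cells. The lowest log2 ratios of this list there were -0.27, -1.88 and -1.67.

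In the IKK and NF-kB module 6 of 17 measured genes were lower and 0 higher in fl/fl Treg-gated cells, with a median of -0.43. Those lower were the NF-kB subunit genes Nfkb2 (-0.91), Relb (-0.84), Rel (-0.76) and Nfkb1 (-0.62), and Bcl3 (-0.98) and Nfkbid (-0.76), which encode nuclear IkB-like proteins. Rel was at 267.9 CPM in fl/fl and 452.2 CPM in +/+ cells. In conventional CD4 T-gated cells 0 of the 17 were lower or higher, with a median of -0.14, where 2.93% of all genes were lower and 2.51% higher, so this count is near the background. Of 14 measured genes for ubiquitin editing and feedback 2 were lower in Treg-gated cells, Tnfaip8l2 (-0.78) and Otud7b (-0.69), and Tnfaip3, the gene for A20, had a log2 ratio of -0.36. Tnfsf8, Ltb, Rel, Nfkb1, Tnfaip3, Birc2 and Birc3 are outside the rule for named genes and were picked after their values were seen. Against 10.2% lower over all genes, the ligand and NF-kB lists held larger shares in the whole Treg gate. With so few genes per list, the adaptor and ubiquitin counts are near that background. No test was made of these lists.

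**Figure D5:**
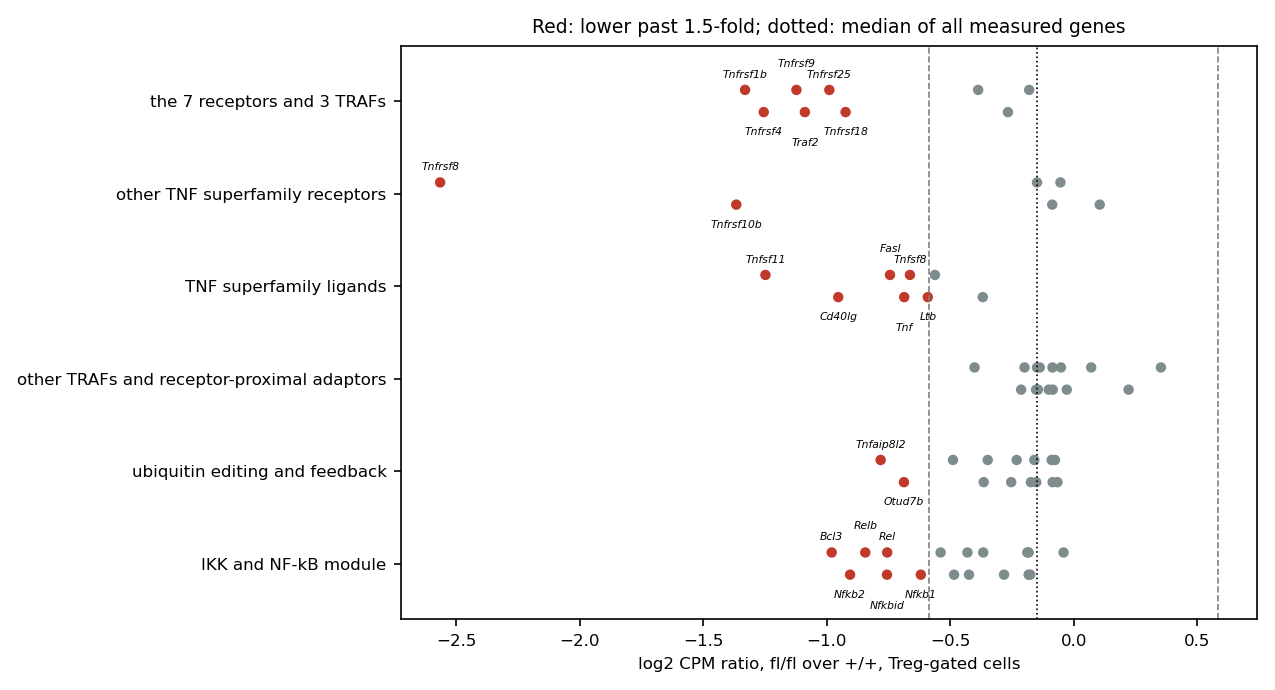
Log2 CPM ratio of fl/fl over +/+ in Treg-gated cells for the measured genes of the 7 receptors, 3 TRAFs and 5 other pathway lists, one point per gene, red where lower by the 1.5-fold rule. The receptor-proximal adaptors cluster around the median of all genes (dotted), at -0.15.

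Markers of other cell types in the Treg gate were low in both libraries. Summed over each list, B cell markers (0 of 4 at 0 UMIs) came to 6.45 CPM in fl/fl and 14.8 CPM in +/+, neutrophil markers to 12.3 and 28.5 CPM, NK markers to 0.972 and 1.85 CPM, and monocyte or macrophage markers to 84.1 and 54.9 CPM. The gate itself limits these markers, and CD8 genes are at 0 by its construction. A stricter gate allowed no UMI of B, plasma, neutrophil, monocyte or macrophage, or dendritic markers, with NK markers limited as before. It left 1763 fl/fl and 2210 +/+ cells. There 6 of the genes were lower, with log2 ratios of -1.22 for Tnfrsf1b, -1.16 for Tnfrsf4, -1.07 for Tnfrsf9 and -0.77 for Tnfrsf18. Tnfrsf9 overlaps Camta1, Tnfrsf18 overlaps Gm16008, Cd27 overlaps Vamp1, Traf2 overlaps Gm13433 and Traf3 overlaps 4930595D18Rik, each on the opposite strand. How the counting treated strand is not given in the sources used here, so reads from such pairs may not be told apart.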

How the data were processed

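Single-cell libraries of sorted spleen Treg cells were made with a 10x Genomics 3' v3.1 kit, per the labels' protocols. Cell Ranger 7.1.0, Seurat 4.1.1 and fastp were used with build GRCm38 (mm10), per the submitters' processing notes. Unnormalized UMI counts, whole numbers per gene and barcode, were deposited. The filter behind the deposited barcodes is not given in the sources used here.

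Barcodes with under 500 genes or over 10% mitochondrial counts were dropped. Doublets were scored with Scrublet in scanpy 1.11.5. Its automatic threshold called 3 fl/fl and 0 +/+ barcodes, so Otsu's method on the simulated scores was used, which removed 184 fl/fl and 113 +/+. T cells needed 2 or more UMIs of Cd3e, Cd3d, Cd3g, Trac and Trbc2 and limited UMIs of B, myeloid, dendritic, plasma and NK markers. The Treg gate asked for 1 Foxp3 or 2 Ikzf2 UMIs, no Cd8a, Cd8b1 or Trdc, and under 3 UMIs of Mki67, Top2a, Birc5 and Cdk1. A marker difference of 2 UMIs or more split it into effector and central cells. In no gate were 1652 fl/fl and 1502 +/+ cells. Gate limits were set after gate sizes were seen. The genes, lists and tests were chosen with earlier results of these data known.

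Counts were summed per gate and library and scaled to CPM. Ratios have 95% exact conditional binomial intervals, levels exact Poisson and shares exact binomial ones. UMIs are counts of captured molecules, so levels of different genes were not compared. The calling was tested on simulated data. Named were all 10 genes, up to 4 per list with the largest ratios, and the 3 most alike for each gene, among protein genes at 20 CPM or more in at least 2 sums. One central marker and one of the most alike genes are not reported here. Annotation was GENCODE for GRCm38. Python 3.11.15, NumPy 2.4.6, SciPy 1.17.1, pandas 2.3.3 and matplotlib 3.10.9 were used.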

Additional observations from a re-analysis of the deposited data

Results flagged for a closer look

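Tnfrsf1b was higher in fl/fl in monocytes or macrophages and lower in fl/fl in Treg and NK cells. It was at 270.6 CPM in fl/fl and 136.2 CPM in +/+ monocyte or macrophage-gated cells, a log2 ratio of 0.99 (0.72 to 1.26). Its log2 ratio of fl/fl over +/+ was -1.36 in central Treg-, -0.66 in effector Treg- and -0.61 in NK-gated cells. The monocyte or macrophage gate held 131 fl/fl and 172 +/+ cells, and of 8805 genes measured in it 483 were higher and 896 lower. The difference between the gates was not tested.

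Traf1 also differed in direction between gates, by smaller amounts. It was at 112.9 CPM in fl/fl and 83.2 CPM in +/+ monocyte or macrophage-gated cells, a log2 ratio of 0.44 (0.06 to 0.82), which is under the 1.5-fold limit. Its log2 ratio was -0.27 in central Treg-, -0.19 in effector Treg-, -0.53 in naive-like conventional CD4 T- and -0.63 in activated CD8 T-gated cells. This difference was not tested.

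Fasl, the gene for the ligand of the death receptor Fas, was lower in fl/fl in the whole Treg gate, at 6.06 CPM in fl/fl and 10.2 CPM in +/+, a log2 ratio of -0.74. In conventional CD4 T-gated cells it was higher in fl/fl, at 28.7 CPM in fl/fl and 14.5 CPM in +/+, a log2 ratio of 0.98. In effector Treg-gated cells it was at 19.6 CPM in fl/fl and 12.3 CPM in +/+, a log2 ratio of 0.66. The difference between Treg- and conventional CD4 T-gated cells was not tested.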

How the results depend on the processing

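No paired analysis was possible because each genotype has 1 library. The 6 genes lower in Treg-gated cells were also 6 with doublets kept, all barcodes, a mitochondrial limit of 5%, an Ikzf2-only gate, a 20 CPM floor and a required Cd4 UMI, the last an alternative chosen after seeing the data. Thinning gave 7, a Foxp3-only gate 5 (Traf2 at -0.54), parts weighted alike 5 (Tnfrsf18 at -0.58) and a fold of 2 gave 4. None of the log2 ratios of the 10 genes changed sign under the alternatives run in the Treg gate. A changed floor or fold cannot alter a ratio, so those alternatives say nothing about sign.

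Scaling the libraries by the median gene ratio gave 286 higher genes in Treg-gated and 270 in central cells. A 20 CPM floor gave 108 higher in Treg-gated cells, 468 lower and 109 higher in central cells, 207 higher in effector cells, and 108 lower and 116 higher in conventional CD4 T cells. No floor gave 2193 lower and 650 higher in Treg-gated cells, and a fold of 2 gave 295 and 67. In thinned cells 3 of the genes were lower in effector Treg cells, with Tnfrsf1b at -0.52 and Traf2 at -0.54 (-1.36 to 0.23), and 3 in conventional CD4 T cells, Tnfrsf4 (-1.37), Tnfrsf9 (-0.96) and Tnfrsf18 (-0.90). The cause was not tested. Of the log2 ratios between libraries recomputed under an alternative, 202 stayed within their counting interval, 48 moved outside it and 0 reversed. The 202 include ratios under a changed floor or fold, which could not move because neither enters the ratio. Of the effector over central ratios 42 stayed within their counting interval and 18 moved outside. With a laxer marker limit, a stricter one and thinned cells, 4, 5 and 4 of the genes were higher in both libraries. Low counts limit Tnfrsf1a, Tnfrsf25 and Traf2 most, and a single library per genotype limits every comparison.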

Other observations

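Activated conventional CD4 T cells carried some of these receptors at higher levels than naive-like ones in both libraries. Tnfrsf1b was at 85.3 CPM in activated and 31.8 CPM in naive-like cells of the fl/fl library, and at 108.6 CPM in activated and 37.1 CPM in naive-like cells of the +/+ library, log2 ratios of 1.42 (0.98 to 1.87) and 1.55 (1.12 to 1.97). Tnfrsf9 gave log2 ratios of 1.00 in fl/fl and 1.33 in +/+. In activated over naive-like CD8 T cells Tnfrsf1b gave 0.73 in fl/fl and 1.12 in +/+. Traf1 gave 0.52 (0.06 to 0.98) in fl/fl CD8 T cells, under the 1.5-fold limit, and 0.90 (0.44 to 1.37) in +/+.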
